A study of Mus musculus with 6 samples.

Results

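Bidirectional promoters start 2 protein-coding genes in opposite directions from 1 short stretch of DNA. Here they were the ATACseq peaks that overlapped a divergent pair of start sites, with the start site of the minus-strand gene upstream of that of the plus-strand gene and at most 1000 bp between them (GENCODE M21 basic start sites, mm10). Peaks were consensus peaks, made from stretches over 200 bp shared by both libraries of an oxygen condition and merged across conditions, and a peak counted when it held such a stretch from all 3 conditions. By this rule 891 of 41308 consensus peaks were bidirectional promoter peaks. They were thus selected on a measured value, the detection of a peak at every oxygen level. The same detection was asked of the peaks they were compared with, 9144 other peaks that held the start site of a protein-coding gene.

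The cells were GL261, a single murine glioblastoma line stably expressing pEGFP-N1, grown in culture. A pair of libraries was made from cells kept in normoxia (21% O2), a pair from cells held for 16 h at 1% O2 (moderate hypoxia), and a pair after 16 h at <0.1% O2 (severe hypoxia). All cells carried the same plasmid, were fixed with formaldehyde while still at their oxygen level, before lysis and the Tn5 transposase reaction. The labels do not say whether the 2 libraries of a condition came from separate cultures, so differences between them may be technical. Start sites of 7 of 8 glial and glioma marker genes lay under a consensus peak, with Gfap the exception, and those of 4 marker genes of leukocytes, endothelium and neurons (Ptprc, Cd68, Pecam1 and Rbfox3) did not. The libraries held 33006 to 43554 peaks. The lowest background in each list, which stands for the mean fragment coverage of the genome, was 2.16 and 2.36 in the normoxic libraries and 2.93 to 3.35 in the hypoxic ones, so depth and oxygen level cannot be told apart.

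A divergent pair shares 1 nucleosome-depleted region, and the polymerases leave it in opposite directions. Such promoters are usually rich in CpG dinucleotides, lack a TATA box and start housekeeping genes, among them genes of DNA repair, RNA processing, mitochondria and protein folding. CCAAT boxes, bound by NF-Y, and ETS motifs, bound by factors such as GABP, are known features of bidirectional promoters. In replication-dependent histone clusters the H2A and H2B genes often lie head to head.

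The sequences between the start sites of 8 pairs show what the compared stretches look like. They are from GRCm38.p6 (mm10), on the plus strand, 5′ to 3′, and exclude the start sites themselves. Capitals mark matches on either strand to the motifs searched below. The first 4 stretches are short, and their peaks ranked lower at <0.1% O2 by both measures used below. They lie between Dpm1 and Mocs3 (chr2:168230592-168230621), Srsf11 and Lrrc40 (chr3:158036640-158036661), Zfp944 and Zfp758 (chr17:22361401-22361452), and Zfp942 and Zfp943 (chr17:21962452-21962551). The capitals in the zinc finger stretches are a palindrome that holds the HIF core on both strands and, in the longer one, a GC box.
Dpm1/Mocs3: ggaaacggaagtcccttcccggctctttcc
Srsf11/Lrrc40: gtgaggcggaagGGGCGGggtt
Zfp944/Zfp758: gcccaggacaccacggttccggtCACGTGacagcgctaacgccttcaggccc
Zfp942/Zfp943: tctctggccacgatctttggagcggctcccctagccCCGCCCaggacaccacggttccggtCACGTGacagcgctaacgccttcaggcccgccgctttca

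The next 2 carry CCAAT boxes, in the mitochondrial pair Mrps12 and Sars2 (chr7:28741821-28742001) and the histone pair Hist1h2ac and Hist1h2bc (chr13:23683949-23684198). The first also holds a GC box that overlaps an E2F core, and the second a TATA box.
Mrps12/Sars2: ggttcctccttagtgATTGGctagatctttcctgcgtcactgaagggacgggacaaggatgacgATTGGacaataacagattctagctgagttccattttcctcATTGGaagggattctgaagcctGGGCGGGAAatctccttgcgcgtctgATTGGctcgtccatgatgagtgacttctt
Hist1h2ac/Hist1h2bc: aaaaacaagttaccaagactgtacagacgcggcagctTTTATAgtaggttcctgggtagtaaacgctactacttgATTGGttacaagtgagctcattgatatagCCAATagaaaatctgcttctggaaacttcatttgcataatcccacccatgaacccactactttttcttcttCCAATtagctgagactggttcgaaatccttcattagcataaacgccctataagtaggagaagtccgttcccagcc

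Another 2 carry an ETS core, in the chaperonin pair Hspd1 and Hspe1 (chr1:55088025-55088131), where it stands on both strands beside a GC box, and between Aimp1 and Tbck (chr3:132683885-132684143), where a CRE follows it.
Hspd1/Hspe1: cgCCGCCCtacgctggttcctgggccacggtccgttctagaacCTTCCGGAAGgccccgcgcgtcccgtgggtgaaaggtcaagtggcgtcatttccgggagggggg
Aimp1/Tbck: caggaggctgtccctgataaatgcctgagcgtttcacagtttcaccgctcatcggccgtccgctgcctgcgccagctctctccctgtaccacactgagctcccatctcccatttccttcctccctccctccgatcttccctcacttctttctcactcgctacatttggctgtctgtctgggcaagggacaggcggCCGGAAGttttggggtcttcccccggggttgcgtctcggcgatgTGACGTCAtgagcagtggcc

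The annotation held 1009 divergent coding pairs, and 917 of them (90.9%) lay under a bidirectional promoter peak. A further 83 pairs had no consensus peak at all, and 9 peaks on pairs were left out since they lacked a stretch from at least 1 condition. Most peaks, 858, covered 1 pair and 33 covered 2. In 844 peaks (94.7%) both start sites lay inside the peak, and the other 47 held 1. Conversely, 7 pairs lay under 2 peaks each. The start sites were close, at a median of 130 bp with quartiles of 69 and 256 bp. Just inside the distance limit, 30 peaks with pairs 801 to 1000 bp apart had a median normoxic rank (by fold, as defined below) of 53.3 and changes of -2.22 at 1% O2 and 1.97 at <0.1% O2. Just outside it, 28 peaks with pairs 1001 to 1200 bp apart had 35.2, -1.03 and -0.52.

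Peak height was read in 2 ways. The fold is the height of the peak at its summit over the local background, as the peak caller gave it, and the summit pileup is the number of fragments over the summit. Within each library both were expressed as percentile ranks over the 28432 peaks that every library held, so that 50 is a typical peak and 100 the highest. A change is the mean rank of the 2 hypoxic libraries less that of the 2 normoxic ones, in percentile points. Lower or higher, as a call, needs a change of 10 points or more and no overlap between the hypoxic and the normoxic pair of libraries. All 891 peaks had values in every library.

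In normoxia bidirectional promoter peaks were taller than other coding promoter peaks. Their median fold ranks were 75.9 and 73.7 in the normoxic libraries, against 66.4 and 65.5 for the others. By summit pileup the medians were 78.0 and 78.6 against 68.5 and 68.7. In fragments these were 118 and 162 at the summit, against 94 and 126. Coding promoter peaks whose partner was a noncoding gene (840 peaks with a divergent noncoding start site within 1000 bp) stood between the 2 sets, at 70.7 and 70.0 by fold. The 8304 coding peaks with no divergent start site were lowest, at 66.0 and 65.2. The same order of the 3 sets held in all 6 libraries by both measures. The bidirectional peaks were also wider, at a median of 1094 bp against 1015 bp. Their GC content around the summit was a little lower, 63.7% against 65.3%, and their ratio of observed to expected CpG was 0.86 against 0.82.

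**Figure D1:**
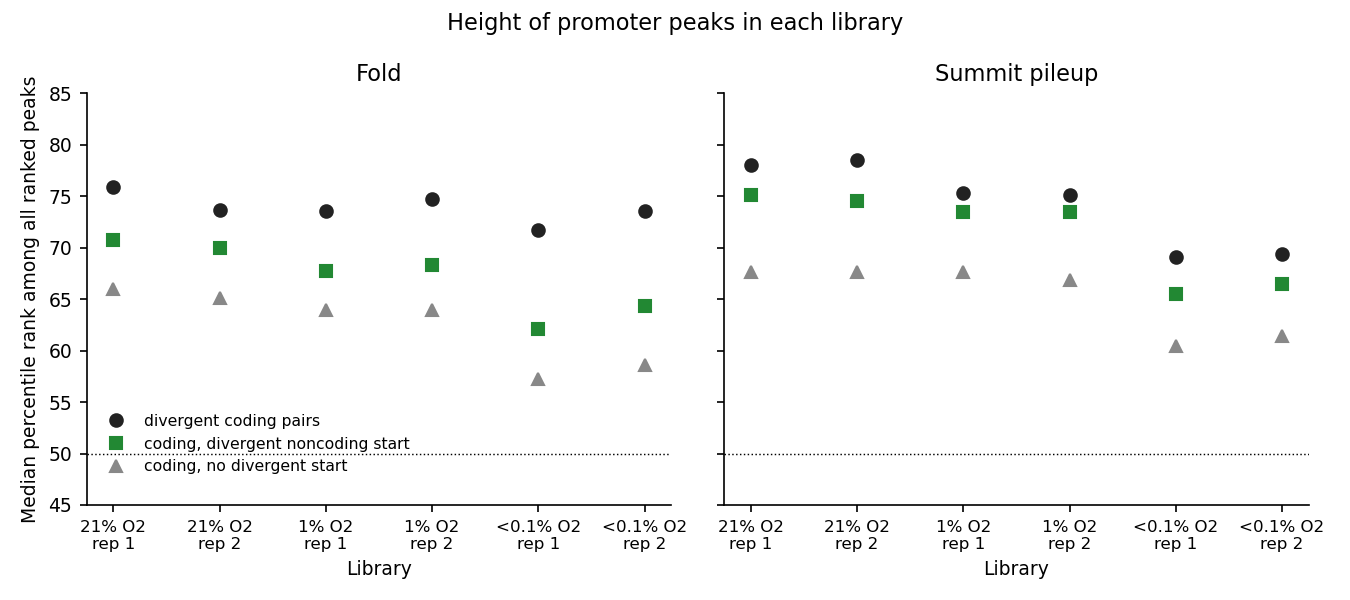
Median percentile rank of 3 sets of coding promoter peaks in each of the 6 libraries, by fold (left) and by summit pileup (right); the dotted line is the median of all ranked peaks. Points are 1 library each: bidirectional promoter peaks (circles) stand above coding peaks with a noncoding partner (squares) and coding peaks without a divergent start site (triangles) in all 6 libraries, at 71.8 to 75.9 by fold and 69.1 to 78.6 by pileup.

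Bidirectional promoter peaks also led in hypoxia, and whether the gap was wider than in normoxia depended on the measure. By fold the medians of the bidirectional peaks were 73.6 and 74.8 at 1% O2 and 71.8 and 73.6 at <0.1% O2, while those of other coding peaks were 64.2 and 64.4, and 57.7 and 59.2. The gap between the 2 medians was 9.45 and 8.14 points in normoxia, 9.44 and 10.4 at 1% O2, and 14.1 and 14.5 at <0.1% O2. The values at 1% O2 overlapped the normoxic ones and those at <0.1% O2 did not. The mean gap was thus 1.13 points wider at 1% O2 (exact permutation test over libraries, two-sided, p = 0.67) and 5.48 points wider at <0.1% O2 (p = 0.33, the smallest that 2 libraries against 2 allow). All 4 hypoxic libraries against both normoxic ones gave an exact permutation p of 0.2, or 0.24 adjusted over the 32 set differences compared this way.

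By summit pileup the gap was narrower instead. It was 9.49 and 9.89 points in normoxia, 7.12 and 7.60 at 1% O2, and 8.23 and 7.45 at <0.1% O2. All 4 hypoxic libraries lay below both normoxic ones, which gives an exact permutation p of 0.067, the smallest that 4 against 2 allow, and 0.16 after adjustment. The ranks of the local background, the divisor of the fold, moved too. The background of bidirectional peaks ranked 7.17 and 7.73 points above that of other coding peaks in normoxia, 5.73 and 6.09 points at 1% O2, and 3.85 and 4.33 points at <0.1% O2. A wider gap at <0.1% O2 is therefore a statement about the fold and not about the pileup.

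Counted peak by peak at 1% O2, the bidirectional promoters held fewer calls towards higher ranks than peaks in general. The bidirectional peaks already ranked above a typical peak in normoxia, which leaves less room to rise. By fold, 125 (14.03%) were lower and 77 (8.64%) higher, against 18.5% and 16.6% of all ranked peaks. Other coding promoter peaks stood at 16.8% and 10.7%. By pileup 175 (19.6%) were lower and 54 (6.06%) higher, against 17.0% and 16.4% of all ranked peaks. Of other coding promoter peaks 15.6% were lower and 10.6% higher by pileup, so that the measures differed in which set had the larger share of lower peaks. With ranks taken over each full list the ranks of shared peaks moved up in general, by a median of 3.02 points over all ranked peaks at 1% O2 and 2.62 at <0.1% O2. The length of these lists was 33006 and 36188 peaks in normoxia and 39348 to 43554 in hypoxia, and at 1% O2 39 bidirectional peaks (4.38%) were lower and 127 (14.3%) higher by fold, against 8.57% and 25.4% of all ranked peaks.

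At <0.1% O2 lower calls outnumbered higher ones by both measures when the same peaks were ranked in every library. By fold 218 (24.5%) were lower and 103 (11.6%) higher, against 19.9% and 19.3% of all ranked peaks. Of the 9144 other coding promoter peaks 2743 were lower and 802 (8.77%) higher, a more one-sided split by fold. By pileup 333 bidirectional peaks (37.4%) were lower and 37 (4.15%) higher, against 21.5% and 20.7% of all ranked peaks. Other coding promoter peaks had 35.3% and 6.93%, so that by pileup the bidirectional peaks were the more one-sided. Their median pileup ranks in normoxia were higher, 78.0 and 78.6 against 68.5 and 68.7, which leaves less room to rise. The effect of this on the shares was not tested. Both measures called 173 bidirectional peaks (19.4%) lower and 13 (1.46%) higher, against 22.2% and 2.997% of other coding promoter peaks. The share of all ranked peaks called by both measures was not counted. No peak called lower by fold was called higher by pileup, but 6 of the 103 called higher by fold were called lower by pileup. In other coding promoter peaks 5 of 2743 and 23 of 802 went opposite ways. Ranked within whole lists, 126 peaks (14.1%) were lower and 135 (15.2%) higher by fold, against 12.7% and 25.8% of all ranked peaks and 19.9% and 12.4% of other coding promoter peaks. With the trend of change with GC content subtracted the counts were 177 (19.9%) and 148 (16.6%), against 19.5% of all ranked peaks in either direction and 25.6% and 12.4% of other coding promoter peaks.

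The change at <0.1% O2 differed by the distance between the start sites. Pairs up to 100 bp apart (360 peaks) had a median change of -6.14 points by fold and -10.0 by pileup. Pairs 101 to 200 bp apart (231) had -0.65 and -5.16, and pairs 201 to 300 bp apart (121) had 1.35 and -2.65. At 301 to 500 bp (90 peaks) the medians were 0.97 and -1.65, and at 501 to 1000 bp (89) they were 2.57 and -1.15. The medians of compact pairs were thus the lowest by both measures. For reference the median change of other coding promoter peaks was -3.995 by fold and -5.15 by pileup.

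The share of lower peaks was also highest in the shortest class, though it did not follow the order of the medians beyond it. From the shortest to the longest class it was 34.4%, 18.2%, 14.9%, 21.1% and 16.9% by fold, against 19.9% of all ranked peaks and 2743 of the 9144 other coding promoter peaks. By pileup it was 49.7%, 31.6%, 28.1%, 25.6% and 27.0%, against 21.5% and 35.3%. Of pairs over 200 bp apart 52 (17.3%) were lower by fold and 81 (27.0%) by pileup, and 53 (17.7%) were higher by fold and 17 (5.67%) by pileup. By fold alone the calls were about even, and both shares were below the 19.9% and 19.3% of all ranked peaks. At 1% O2 the classes differed less. The medians by fold were between -2.06 and 0.32 points, and pileup set apart only the shortest class, at -3.34 against -0.38 to 0.28 in the others.

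Per library, pairs up to 100 bp apart less pairs over 200 bp apart differed in median fold rank by 3.59 and 2.56 points in normoxia, by 3.45 and 0.37 at 1% O2, and by -4.77 and -7.14 at <0.1% O2. The compact pairs were ahead in normoxia and behind at <0.1% O2 in both libraries (mean change -9.03, exact permutation p = 0.33). By fold, all 4 hypoxic libraries against both normoxic ones gave an exact permutation p of 0.2, or 0.24 adjusted over the 32 set differences. By pileup the compact pairs were behind throughout, by -15.7 and -15.2 in normoxia, -20.4 and -20.8 at 1% O2, and -23.7 and -23.2 at <0.1% O2. The same test of 4 against 2 libraries gave an exact permutation p of 0.067 by pileup, or 0.16 adjusted. Their local background moved the same way, from -17.3 in both normoxic libraries to -26.1 and -24.9 at <0.1% O2.

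The order was also present against peaks of like height or base composition. Pairs up to 100 bp and pairs over 200 bp apart had median normoxic fold ranks of 74.7 and 71.9 and GC contents of 64.7% and 62.0%. Set against all ranked peaks in the same of 10 equal bins of mean rank, the median change at <0.1% O2 ran from -6.17 in the shortest class to 2.87 in the longest by fold, and from -9.68 to -1.06 by pileup. With 10 bins of GC content it ran from -4.10 to 5.29 by fold and from -7.51 to 2.37 by pileup. Peaks shared by a coding and a noncoding gene, which are not among the 891, showed the same order by both measures up to 300 bp. Their medians at <0.1% O2 were -7.33 by fold and -10.4 by pileup up to 100 bp (279 peaks), -3.07 and -4.99 at 101 to 200 bp (269), and -0.44 and -3.35 at 201 to 300 bp (110). At 501 to 1000 bp they stood at -1.51 and -6.26 (93 peaks).

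**Figure D2:**
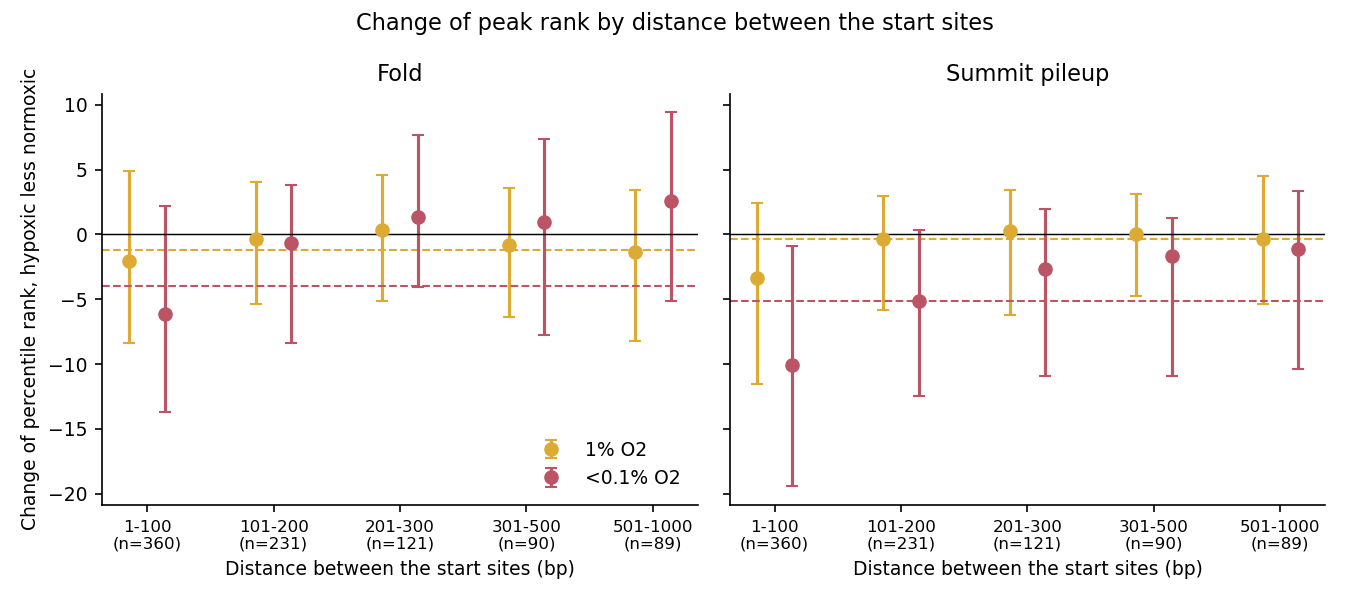
Change of percentile rank at 1% O2 (yellow) and <0.1% O2 (red) against normoxia, by the distance between the start sites, for fold (left) and summit pileup (right). Points are medians over the peaks of a class, bars run from the first to the third quartile over peaks, and dashed lines are the medians of other coding promoter peaks; at <0.1% O2 the medians run from -6.14 to 2.57 by fold and from -10.0 to -1.15 by pileup.

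The summit, the point of highest pileup, lay a median of 70 to 81.5 bp from the middle of the pair and 62 to 69 bp from the nearer start site, over the 6 libraries. How often it lay between the start sites depended on the space there. It did so in 21.4% to 26.4% of pairs up to 100 bp apart, 53.7% to 58.9% of those at 101 to 200 bp, 72.7% to 80.2% at 201 to 300 bp, and 82.2% to 85.6% at 301 to 500 bp, over the 6 libraries. Beyond 500 bp the share was 60.7% to 67.4%, and the summit sat 98 to 127 bp from the nearer start site and 304 to 329 bp from the middle. Peaks reached about equally far past both starts, a median of 448 bp into the minus-strand gene and 454 bp into the plus-strand gene among 843 peaks that held both start sites of their closest pair.

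Summits differed by a median of 28 bp between the normoxic libraries, 15 bp between those at 1% O2 and 24 bp between those at <0.1% O2, and by 24 to 37 bp between a normoxic and a hypoxic library.

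**Figure D3:**
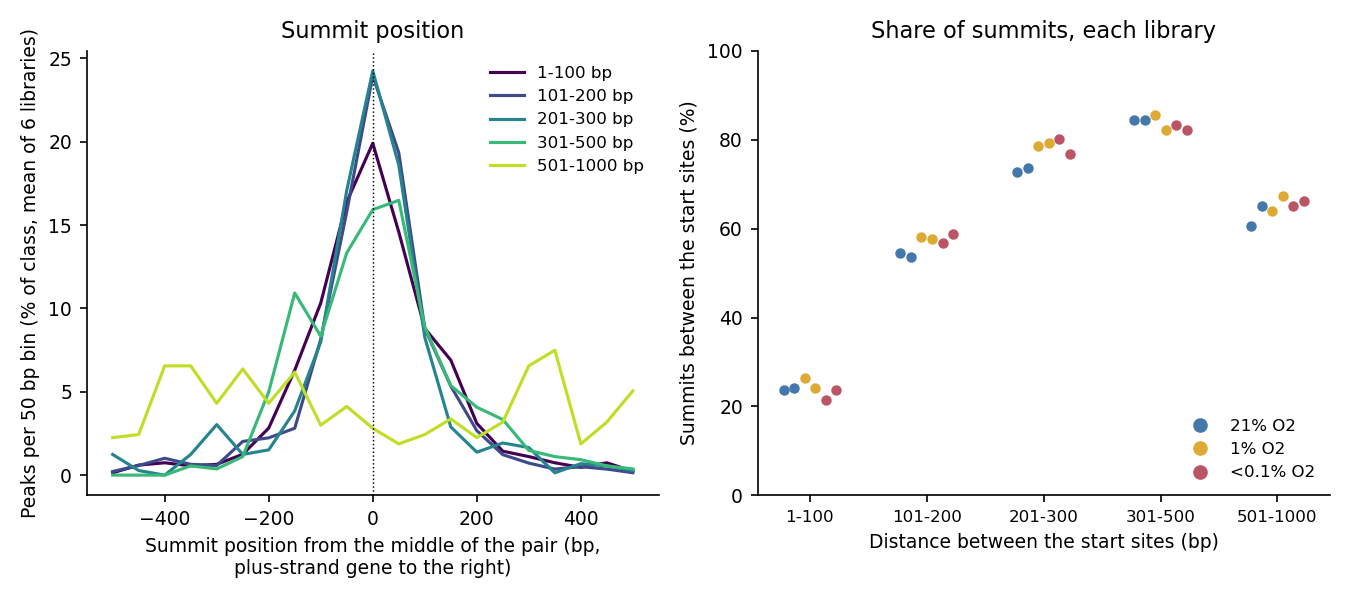
Left, summit position relative to the middle of the pair (bp, plus-strand gene to the right), as the percent of peaks of a distance class in bins of 50 bp, averaged over the 6 libraries. Right, percent of summits between the start sites in each library (points, coloured by oxygen level) for each class, from 21.4% to 26.4% in the shortest class to 82.2% to 85.6% at 301 to 500 bp; the longest class has no central maximum on the left.

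The 300 bp around the summit were searched for 10 short motifs on both strands. CCAAT was in 45.8% of bidirectional peaks, 38.0% of other coding promoter peaks and 34.7% of all ranked peaks. The ETS core CCGGAAG was in 29.5%, 18.7% and 9.01%. The GC box GGGCGG was in 73.3% against 72.9%, the HIF core ACGTG in 29.5% against 27.6%, the E2F core TTCCCGC in 11.3% against 9.59%, and the NRF1 core GCATGCGC in 6.96% against 5.70%. The YY1 core ATGGCGGC was in 6.29% against 6.01%, the CRE TGACGTCA in 4.26% against 3.71%, the TATA box TATAAA in 3.14% against 3.64%, and the palindrome CTCGCGAG in 3.03% against 2.15%. The E2F core and the GC box can overlap, as can the ETS core on its 2 strands. A match describes the letters and not the binding of a factor.

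Peaks with CCAAT had higher median changes than peaks without it. At <0.1% O2 the 408 bidirectional peaks with CCAAT had a median change of 0.93 by fold and -2.09 by pileup, against -4.97 and -8.88 for the 483 without. By fold 14.7% of the first were lower and 16.7% higher, and of the second 32.7% and 7.25%, against 19.9% and 19.3% of all ranked peaks. Per library, the lead of peaks with CCAAT in median fold rank was 8.98 and 8.41 points in normoxia, 8.09 and 9.54 at 1% O2, and 17.9 and 16.7 at <0.1% O2, and the values at <0.1% O2 stood clear of the rest (mean change 8.55, exact permutation p = 0.33). By pileup it was 12.6 and 13.3, 16.7 and 17.8, and 19.9 and 20.7. The same contrast was present in other coding promoter peaks, with 9.79 and 11.0 points in normoxia and 17.4 and 17.6 at <0.1% O2 by fold, and so was not particular to the pairs.

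Peaks with the ETS core ranked lower at <0.1% O2. The 263 bidirectional peaks with it had a median change at <0.1% O2 of -5.98 by fold and -9.44 by pileup, against -0.09 and -4.49 for the 628 without. In median fold rank they led by 2.28 and 3.12 points in normoxia and 1.35 and 0.62 at 1% O2, and the difference was -3.53 and -3.77 at <0.1% O2 (mean change -6.35, exact permutation p = 0.33). By pileup they were behind in normoxia too, with differences of -4.82 and -4.92 there and -8.78 and -9.30 at <0.1% O2. In other coding promoter peaks those with the core led by fold throughout, by 9.48 and 11.1 in normoxia and 7.80 and 6.13 at <0.1% O2. The motifs were also read together. Of 305 peaks with CCAAT and no ETS core, 32 (10.5%) were lower and 58 higher by fold at <0.1% O2, whereas of 160 with an ETS core and no CCAAT, 57 (35.6%) were lower and 13 higher, against 19.9% of all ranked peaks lower and 19.3% higher. The same contrast stood in other coding promoter peaks, where 20.6% of those with CCAAT alone and 41.8% of those with the ETS core alone were lower. By pileup 22.6% and 52.5% of the bidirectional peaks were lower, and 22.5% and 51.5% of the others. The HIF core made little difference, with a median change of -1.31 by fold in 263 peaks with it and -1.41 without.

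Motifs and distance were linked. CCAAT was in 33.9% of peaks of pairs up to 100 bp apart and in 58.7% of those 201 to 300 bp apart, and the ETS core in 38.3% and 15.7%. Within all 5 classes the median change by fold was lower without CCAAT and lower with the ETS core. At 301 to 500 bp, however, the share of peaks called lower by fold was 11.1% with the ETS core and 23.6% without. Only 18 peaks of that class had the core, and 19.9% of all ranked peaks were lower. In the shortest class the median change by fold at <0.1% O2 was -3.57 with CCAAT and -7.39 without, and at 201 to 300 bp it was 3.13 and -1.56. With the ETS core it was -8.51 against -4.74 without in the shortest class, and -3.84 against 1.83 at 201 to 300 bp, where only 19 peaks had the core. From the shortest to the longest class the medians ran from -3.57 to 3.92 with CCAAT and from -7.39 to 0.46 without.

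**Figure D4:**
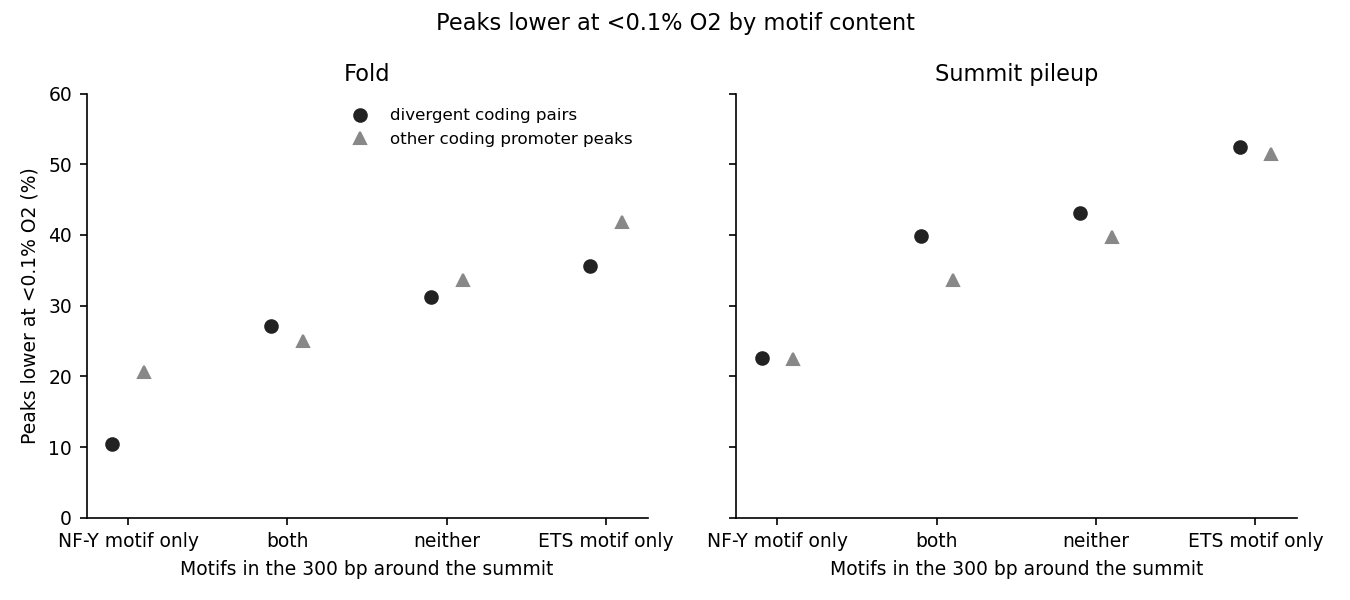
Percent of peaks called lower at <0.1% O2, by fold (left) and summit pileup (right), for peaks with the NF-Y motif (the CCAAT box) but no ETS motif (the ETS core), with both, with neither, and with the ETS motif alone, within 300 bp around the summit. Circles are bidirectional promoter peaks and triangles other coding promoter peaks; from the first to the last class the bidirectional peaks go from 10.5% to 35.6% by fold and from 22.6% to 52.5% by pileup.

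Of 17 well-known bidirectional pairs, 9 had a peak by the rule. Atm and Npat, which encode the DNA damage kinase and a histone gene activator, shared a peak near the top of all lists, with fold ranks of 98.1 and 99.1 in normoxia, 97.1 and 98.1 at 1% O2, and 98.9 and 98.7 at <0.1% O2. A change could hardly show so close to the top of the scale. Hspd1 and Hspe1, which encode the mitochondrial chaperonin and its co-chaperonin, ranked 61.5 and 61.7 by fold in normoxia, 62.8 and 62.6 at 1% O2, and 76.5 and 74.7 at <0.1% O2. Their pileup went the other way, from ranks of 94.0 and 94.6 through 89.2 and 85.7 to 82.2 and 81.7, which made the pair higher by fold and lower by pileup at <0.1% O2. Mcm4 and Prkdc, of the replicative helicase and the end-joining kinase, gave 81.4 and 78.8 by fold in normoxia and 89.1 and 93.1 at <0.1% O2, but 78.0 and 78.6 against 69.7 and 73.2 by pileup.

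Psmb9 and Tap1, an immunoproteasome subunit and a peptide transporter of antigen presentation, ranked 78.2 and 71.1 by fold in normoxia and 84.1 and 85.7 at <0.1% O2, a change of 10.3 points that was 6.52 without normoxic replicate 2. Fen1, the flap endonuclease of replication, and Tmem258 were lower by pileup at both levels, at 67.2 and 70.6 in normoxia, 47.9 and 56.6 at 1% O2, and 38.1 and 43.8 at <0.1% O2. By fold the pair was not called. Sirt3, a mitochondrial deacetylase, and Psmd13, a proteasome subunit, were also lower by pileup alone, with a change of -14.3 points at <0.1% O2. Mrps12 and Sars2, of the mitochondrial ribosome and seryl-tRNA synthetase, stayed between 86.9 and 96.0 by fold.

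Among pairs whose pileup moved the same way, the lowest change in fold rank at <0.1% O2 belonged to a pair of zinc finger genes, a class of DNA-binding proteins. Zfp944 and Zfp758 ranked 90.3 and 83.8 in normoxia, 79.7 and 49.1 at 1% O2, and 29.5 and 26.5 at <0.1% O2, a change of -59.1 points. Zfp942 and Zfp943 ranked 89.9 and 98.0, 89.6 and 80.9, and 56.0 and 33.7, a change of -49.1 points. These peaks, of 498 and 795 bp, shared an exact stretch of 293 bases, and their heights are uncertain where fragments of one could be assigned to the other, which was not tested. In the 300 bp around the summit, 7 of the 891 peaks shared an exact 50-base stretch with another ranked peak, and the median change of the others at <0.1% O2 was -1.35 by fold against -1.40 for all.

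Dpm1, a subunit of dolichol-phosphate mannose synthase, and Mocs3, of molybdenum cofactor synthesis, start 31 bp apart. Their peak ranked 74.8 and 67.2 by fold in normoxia, 29.6 and 39.2 at 1% O2, and 25.3 and 17.7 at <0.1% O2, and its summit held 67 and 90, 41 and 48, and 33 and 26 fragments. It was thus lower at both levels and by both measures. Rad17, the loader of the checkpoint clamp, and Ak6, an adenylate kinase, ranked 85.7 and 75.3 by fold in normoxia, 59.2 and 64.2 at 1% O2, and 31.4 and 34.3 at <0.1% O2. Aimp1, a scaffold of the tRNA synthetase complex, and Tbck gave 86.8 and 97.9 in normoxia, 53.2 and 72.0 at 1% O2, and 54.4 and 42.02 at <0.1% O2. Nhlrc3 and Proser1 had the lowest change at 1% O2, with 84.0 and 86.2 in normoxia and 45.04 and 34.9 at 1% O2, and stood at 50.7 and 46.0 at <0.1% O2. For each of these 4 pairs the pileup was called lower at both levels as well.

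The largest positive changes, again among pairs whose pileup moved the same way, were smaller. Fam221b and Tmem8b ranked 48.4 and 41.3 by fold in normoxia, 71.1 and 77.9 at 1% O2, and 72.2 and 76.7 at <0.1% O2, with summits of 69 and 75, 187 and 159, and 179 and 136 fragments. Haghl and Ccdc78 ranked 58.4 and 57.7, 88.3 and 87.4, and 76.1 and 88.3. Their start sites are 907 bp apart, and the peak held that of Haghl alone. Both pairs were called higher at both levels by fold and pileup. Srgap2, a regulator of neuronal migration, and Fam72a had a change of 25.6 points by fold at <0.1% O2 but a pileup that ranked between 99.2 and 99.7 in all 6 libraries, near the top of the scale. Xrcc3, of homologous recombination, and Zfyve21 had changes of 25.5 by fold and 5.42 by pileup. Gnptg, of lysosomal enzyme targeting, and Tsr3, a ribosomal RNA modifying enzyme, had 25.4 and 4.17, with pileup ranks of 19.6 and 3.58 in normoxia that enclosed the hypoxic ones. The fold ranks of this pair were 35.9 and 13.6 in normoxia and 50.3 and 50.2 at <0.1% O2, and without normoxic replicate 2 the change was 13.8.

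At 1% O2 the largest positive change among such pairs, 35.1 points by fold, belonged to Fbxl12 and Ubl5, the latter a ubiquitin-like splicing factor. The peak on their start sites 512 bp apart ranked 29.1 and 25.0 by fold in normoxia, 63.2 and 61.1 at 1% O2, and 35.1 and 45.7 at <0.1% O2. Its summit held 74 and 93, 190 and 156, and 96 and 90 fragments, and it was higher by fold at both levels but by pileup at 1% O2 alone. Its fold change at <0.1% O2, 13.3 points, was 8.22 without replicate 2 at that level. The same genes have another bidirectional peak, over start sites 54 bp apart.

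**Figure D5:**
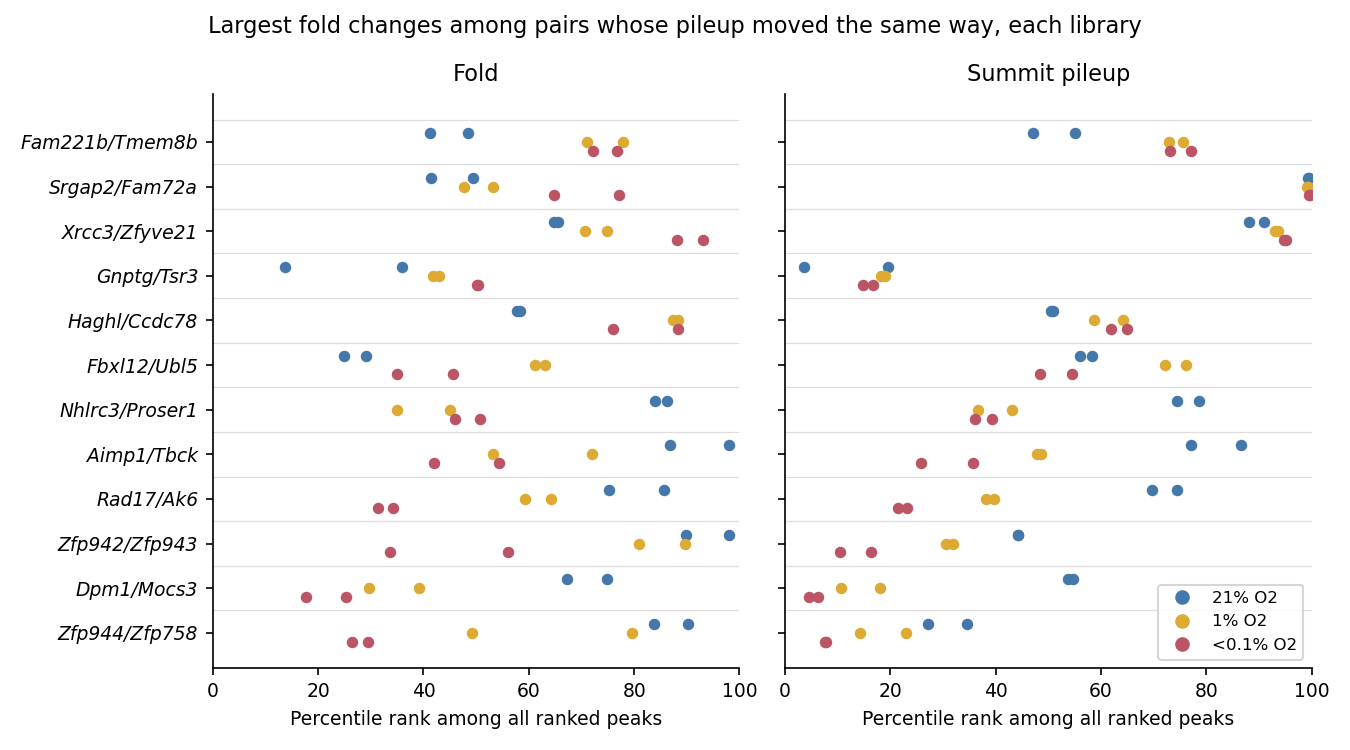
Percentile rank of the peaks of 12 pairs with the largest fold changes among pairs whose pileup moved the same way, in each library (points, coloured by oxygen level), by fold (left) and summit pileup (right), ordered by the change of fold rank at <0.1% O2. In the 6 pairs at the bottom the normoxic points lie to the right of those at <0.1% O2 in both panels; for Srgap2 and Fam72a the pileup points sit together between 99.2 and 99.7.

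By function, the pairs were grouped through 9 gene lists, a peak entering a list when either of its genes did. The counts below are calls at <0.1% O2, to be read against 24.5% lower and 11.6% higher by fold, and 37.4% and 4.15% by pileup, among all 891 peaks. Of all ranked peaks 19.9% were lower and 19.3% higher by fold, and 21.5% and 20.7% by pileup. Percentages after lower calls are shares of the list. The lists were not tested.

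Of 8 histone peaks, 7 of which joined 2 histone genes, 1 was lower and 1 higher by fold, but 6 were lower by pileup. Hist1h2ac and Hist1h2bc, whose CCAAT-rich stretch is printed above, had fold ranks of 63.0 and 55.3 in normoxia and 48.6 and 48.3 at <0.1% O2, and a pileup change of -14.6 points. A short part of this peak was shared with another peak. Hist1h2ak and Hist1h2bn were higher by fold, with a change of 15.8 points, and had a pileup change of -9.02.

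Of 48 DNA repair peaks, 9 were lower and 5 higher by fold, and 14 and 3 by pileup. By fold 18.8% of them were lower, against 19.9% of all ranked peaks, and by pileup 29.2%, against 21.5%. Besides Rad17, the pair of Emc3 and Fancd2, the latter of the Fanconi anaemia pathway, ranked 45.8 and 59.9 by fold in normoxia, 24.3 and 29.2 at 1% O2, and 16.0 and 20.4 at <0.1% O2. Of 11 peaks of DNA replication and nucleotide supply, 4 (36.4%) were lower and 2 higher by fold, and 5 (45.5%) were lower by pileup. Orc3, of the origin recognition complex, and Rars2, the mitochondrial arginyl-tRNA synthetase, kept ranks of 84.6 and 78.8 at 1% O2 against 80.03 and 82.1 in normoxia and stood at 53.3 and 49.2 at <0.1% O2. Mcm7, of the replicative helicase, and Ap4m1 had a change of 23.2 by fold and -4.91 by pileup.

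Of 74 RNA processing peaks, 19 (25.7%) were lower and 12 higher by fold, and 35 (47.3%) and 2 by pileup. The share lower by fold was thus near the 24.5% of all 891 peaks. Thoc7, of the THO complex of mRNA export, and Atxn7, of the SAGA coactivator, ranked 44.9 and 44.5 by fold in normoxia, 30.5 and 22.2 at 1% O2, and 11.0 and 14.7 at <0.1% O2. Srsf11, an SR-type splicing factor, and Lrrc40 start 23 bp apart and ranked 63.7 and 47.8, 38.9 and 39.1, and 31.9 and 23.5. Both pairs had no overlap between normoxic and hypoxic libraries. Of 28 peaks of the transcription machinery, 7 (25.0%) were lower and 3 higher by fold and 15 (53.6%) lower and 1 higher by pileup. Supt7l, of the SAGA complex, and Slc4a1ap had a change of -26.7 by fold and -20.5 by pileup.

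Of 35 peaks of translation and tRNA synthetases, 8 were lower and 5 higher by fold, while 21 were lower and none higher by pileup, a median pileup change of -16.2. Rps18, of the small ribosomal subunit, and Vps52 showed both directions at once, with fold ranks of 29.3 and 32.9 in normoxia and 60.7 and 64.3 at <0.1% O2 and pileup ranks of 51.7 and 55.2 against 35.1 and 39.1. Of 63 mitochondrial peaks, 20 (31.7%) were lower and 3 higher by fold and 35 (55.6%) and 1 by pileup, with a median pileup change of -12.3. Ndufa1, of respiratory complex I, and Rnf113a1 had the widest normoxic spread of the named pairs, 32.4 and 64.0, with 32.4 and 9.36 at 1% O2 and 6.01 and 10.3 at <0.1% O2. Its change of -40.03 was -25.2 without normoxic replicate 2 and -57.2 without normoxic replicate 1. The median distances of these 2 lists were 95 and 88 bp, shorter than the 130 bp of all pairs.

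Of 35 peaks of proteasome, chaperones and ubiquitin, 5 (14.3%) were lower and 8 higher by fold, with a median change of 2.03. By pileup 12 (34.3%) were lower and none higher. C330007P06Rik and Ube2a, of DNA damage signalling, ranked 55.1 and 65.4 by fold in normoxia, 48.03 and 58.2 at 1% O2, and 44.7 and 21.9 at <0.1% O2. The change of -26.9 at <0.1% O2 was -15.2 without replicate 2 at <0.1% O2, and the pileup change was -16.1. Of 25 zinc finger peaks, 7 (28.0%) were lower and none higher by fold, and 10 (40.0%) and 2 by pileup. The list holds both peaks with the shared stretch described above.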

How the data were processed

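ATACseq was analysed from the 6 peak lists as deposited, 1 per library and not pooled. Per their methods, the authors trimmed paired reads with Trimmomatic, aligned them to mm10 with Bowtie2 2.2.5, removed duplicates (Picard), mitochondrial reads and pairs at mapping quality 30 or below, called peaks from whole fragments with MACS2 2.1.1.2 (q threshold 0.001, no shift) and removed blacklisted regions. The deposited columns used were the fold (a ratio of summit pileup to local background), the -log10 p-value and q-value, and the summit position. The deposited score is 10 times the -log10 q-value and was not used. Whole fragments and not Tn5 cut sites were piled up, which widens summits.

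The summit pileup and background were recovered from the deposited fold and p-value, and 100% of pileups came out whole within 0.02. Values per library were ranks among peaks present in all 6 libraries, which removes scale but not effects of depth. Where several peaks of a library met a consensus peak, the highest value was used. Differences between sets of peaks were 1 value per library and were tested by two-sided exact permutation over libraries. Single peaks were not tested. Read counts are not in these lists, so the count-based test of the study (DESeq2) could not be run. The methods were tested on simulated data.

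Start sites were those of GENCODE M21 basic, and sequences were read from GRCm38.p6, whose chromosome lengths contain all peaks. The members, distance classes, motifs and gene lists were chosen with earlier results of these data known. Named pairs were well-known bidirectional pairs, the 5 largest falls and rises at <0.1% O2 and the 3 at 1% O2 among called pairs with gene symbols whose pileup moved the same way, and up to 2 members per gene list with the largest change. Some of these pairs are not reported here. Alternatives changed the overlap, the peak threshold, the pair rule, the measure, the ranking, the comparison set and the call threshold, left out single libraries, subtracted trends with GC content or level and used the replicate number as a block. The level correction, the removal of repeated stretches and the contrasts by distance, CCAAT and ETS were added to these alternatives after seeing the data. The gap change over both levels and the changes of named pairs were not planned results of these alternatives either. Python 3, numpy, pandas and scipy were used.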

Additional observations from a re-analysis of the deposited data

Results flagged for a closer look

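Among the named pairs, Mrps12 and Sars2 had their hypoxia levels on opposite sides of normoxia by fold. The ranks were 94.2 and 94.0 in normoxia, 86.9 and 92.0 at 1% O2, and 95.9 and 96.0 at <0.1% O2, and the change at <0.1% O2 exceeded that at 1% O2 by 6.51 points. This difference was not tested. By pileup the levels were not opposite, since the ranks were 87.4 and 84.6 in normoxia, 90.9 and 93.6 at 1% O2, and 93.1 and 94.4 at <0.1% O2. Of all 891 bidirectional promoter peaks, 23 (2.58%) had both libraries of 1 hypoxia level above and both of the other below the normoxic ones, against 4.37% of other coding promoter peaks and 4.17% of all ranked peaks.

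The lead of coding peaks with a noncoding partner over coding peaks without a divergent start site, in median fold rank, was 4.69 and 4.85 points in normoxia, 3.83 and 4.37 at 1% O2, and 4.91 and 5.72 at <0.1% O2. It was smaller at 1% O2 and larger at <0.1% O2, and the levels differed by 1.21 points (exact permutation p = 0.33, the smallest possible). By pileup it was smaller at both levels, at 7.53 and 6.97 points in normoxia, 5.83 and 6.66 at 1% O2, and 5.03 and 5.00 at <0.1% O2.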

How the results depend on the processing

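The number of bidirectional peaks was 673 to 892 under all alternatives. The distance, CCAAT and ETS contrasts at <0.1% O2 kept their direction under each alternative run, and without 1 library they were -9.92 to -7.67, 8.04 to 9.24 and -6.74 to -5.77 points. By rank of -log10 q the ETS contrast was -2.10 and by pileup -4.17, against -6.35, and within whole lists the CCAAT contrast was 5.48, against 8.55. Over all alternatives the distance contrast was -10.1 to -6.98, the CCAAT contrast 5.48 to 9.31 and the ETS contrast -7.80 to -2.10. The wider fold gap over other coding peaks depended on the measure. The gap change at 1% O2 was -2.33 by pileup rank, -1.26 by rank of -log10 q and -0.20 when ranked within whole lists, at <0.1% O2 it was -1.85 by pileup and -0.0193 by -log10 q, and over both levels -2.09 and -0.64. Without 1 library these 3 changes were 0.39 to 1.85, 4.75 to 6.13 and 2.51 to 4.10. The normoxic gap of 8.80 was 7.75 with overlaps over 400 bp, 10.7 with start sites at most 500 bp apart, 7.60 with 1 start site per gene, 10.0 by -log10 q, 7.35 within whole lists, 15.4 against all other promoter peaks within 2000 bp and 4.42 against coding peaks with a noncoding partner, and 8.10 to 9.58 without 1 library.

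Ranked within whole lists, 39 peaks were lower and 127 higher at 1% O2 and 126 lower at <0.1% O2. By pileup 333 were lower and 37 higher at <0.1% O2, and by -log10 q 34 were higher, against 21.5% of all ranked peaks. With a change of at least 5 points, 218 were lower and 134 higher at 1% O2 and 294 and 166 at <0.1% O2, where all ranked peaks had 25.6%, 21.9%, 26.4% and 25.1%. With 20 points the counts were 24, 19, 91 and 19, where all ranked peaks had 6.31%, 7.72%, 8.82% and 8.92%. With the GC trend subtracted 177 were lower and 148 higher at <0.1% O2. Without 1 library the counts lay at 125 to 182 lower and 76 to 118 higher at 1% O2 (118 without replicate 1 at 1% O2), and 216 to 253 and 102 to 150 at <0.1% O2. Where a library of the comparison was left out, fewer libraries had to stand apart, so the call rule was looser. The shares of all ranked peaks were not counted in these runs, so the counts cannot be read as a trait of the bidirectional peaks. The cause of these differences was not tested.

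Of the named pairs, 7 had the other sign at <0.1% O2 by pileup and by -log10 q: Hspd1/Hspe1 (-12.3 and -9.61), Hist1h2ak/Hist1h2bn (-9.02 and -3.98), Mcm4/Prkdc (-6.88 and -3.05), Rps18/Vps52 (-16.4 and -3.87), Mcm7/Ap4m1 (-4.91 and -1.90), Fbxl12/Ubl5 (-5.78 and -0.15), and Atm/Npat (-1.99 and -1.63), whose change by fold of 0.19 was no call.

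The libraries share replicate numbers but no stated batch, and 2 numbers are too few to show a pairing. Deviations of libraries with the same number correlated at -0.05, -0.04 and 0.03 over all ranked peaks, and at -0.05, -0.04 and 0.14 over the bidirectional peaks, the last for 1% against <0.1% O2. With the replicate number as a block the calls were 132 lower and 82 higher at 1% O2 and 224 and 110 at <0.1% O2, against 19.5%, 17.6%, 20.9% and 20.3% of all ranked peaks, and the gap changes stayed at 1.13 and 5.48. With 2 libraries per condition, changes of single peaks were described and not tested.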

Other observations

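Some motifs that bidirectional peaks shared with other coding promoters went with lower ranks at <0.1% O2. The YY1 core was in 56 bidirectional peaks, of which 33 (58.9%) were lower by pileup. Of those without it 35.9% were lower, and of all ranked peaks 21.5%. The median change by pileup was -13.7 with the core against -5.70 without. By fold the medians were -4.36 and -1.26. In other coding promoter peaks the YY1 core gave -8.73 against -3.67 by fold. For the palindrome CTCGCGAG, in 27 bidirectional peaks, the medians by pileup were -11.8 and -5.85. The GC box went the other way in bidirectional peaks, with -5.02 by pileup in 653 peaks with it and -7.59 in those without. In other coding promoter peaks it made little difference, with -5.20 by pileup with it and -4.99 without.

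All 4 hypoxic libraries lay below both normoxic ones by pileup at 367 bidirectional peaks (41.2%), against 32.6% of other coding promoter peaks and 24.1% of all ranked peaks. By fold the shares were 19.0%, 21.2% and 17.3%. They lay above both by pileup at 149 (16.7%), against 17.3% and 24.0%, and by fold at 97 (10.9%), against 9.46% and 16.3%.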
